A study of Mus musculus with 9 samples.

Results

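The transcription factors Bach2, Id3, Bcl6, Satb1, Lef1, Klf2 and Foxo1 regulate the naive and memory states of T cells, and all 7 were measured on the arrays, out of 17499 genes in all. They were taken as a named list by platform symbol, through 11 of the 26887 probes used: 1 probe each for Bach2, Id3, Bcl6 and Klf2, 2 for Satb1 and for Foxo1, and 3 for Lef1. CD8+ T cells of mice were kept for 4 days in 10 ng/ml of one cytokine, which was IL-21, IL-15 or IL-2, or without any. Every culture, the untreated one included, was then restimulated for 4 h in the absence of cytokine. The sources used here do not give the strain or age of the mice, or the restimulating agent. Each of the 9 two-colour arrays set RNA of cytokine-cultured cells against RNA of untreated cells, with n = 3 biological replicates per cytokine, and the labels do not say whether the arrays of a replicate share one untreated RNA. Each value is therefore a log2 ratio of cytokine over untreated, where 1 is a doubling if the log base, which the sources do not state, is 2, and no level of a gene by itself can be read from it. The ratios do not separate a change in RNA per cell from a change in the mix of cells.

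Naive and memory T cells are held in a quiescent, recirculating state by factors that restrain the effector programme. Foxo1, a forkhead factor that Akt signalling keeps out of the nucleus, drives the genes of the IL-7 receptor and of Klf2, and Klf2, a zinc finger factor, drives receptors for exit from tissue. Lef1 is a DNA-binding partner of beta-catenin, and Satb1 organizes chromatin in thymocytes and naive T cells. Bach2 and Bcl6 are repressors that oppose effector differentiation, and Id3 blocks E proteins and marks cells with memory potential. IL-2 and IL-15 signal mainly through STAT5 and IL-21 mainly through STAT3, and both STATs bind the spaced letters TTCNNNGAA.

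These letters were looked for on both strands of the RefSeq promoter windows of the 7 genes on build GRCm38.p6, each reaching from 250 bases before a transcription start to 50 after it. All 7 genes matched the table, with 15 windows. On that build RefSeq places Bach2 at chr4:32238413-32586109, Id3 at chr4:136143822-136145392, Bcl6 at chr16:23965050-23988866 and Satb1 at chr17:51736187-51833290. Lef1 lies at chr3:131110297-131224357, Klf2 at chr8:72319062-72321654 and Foxo1 at chr3:52268337-52350109. The letters occurred in 3 of the 15, against 8.3% of 32851 windows of the same length over all genes. Some windows of Lef1 overlap each other, as do some of Satb1, so the 15 are not independent. The 3 windows with the letters belong to Bcl6 and Bach2, and they are shown with the matches in capitals. The window of the furthest upstream Satb1 start is shown beside them because Satb1 is the gene that passed the test between cytokines. It held no match, as did the windows of Id3, Lef1, Klf2 and Foxo1 and the other Satb1 windows. The forkhead letters GTAAACA were in none of the 15 windows, against 3.65% of all windows, so no matches of the 2 motifs overlapped. A match describes the letters only and is not evidence of binding.
Bcl6 start inside the gene, chr16:23981234-23981533, minus strand: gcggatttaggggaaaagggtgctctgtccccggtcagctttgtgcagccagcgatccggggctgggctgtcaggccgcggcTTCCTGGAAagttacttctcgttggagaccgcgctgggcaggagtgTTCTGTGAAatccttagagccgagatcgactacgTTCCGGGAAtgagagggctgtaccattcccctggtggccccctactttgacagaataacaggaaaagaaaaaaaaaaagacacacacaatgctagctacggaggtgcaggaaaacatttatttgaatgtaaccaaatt
Bcl6 upstream start, chr16:23988803-23989102, minus strand: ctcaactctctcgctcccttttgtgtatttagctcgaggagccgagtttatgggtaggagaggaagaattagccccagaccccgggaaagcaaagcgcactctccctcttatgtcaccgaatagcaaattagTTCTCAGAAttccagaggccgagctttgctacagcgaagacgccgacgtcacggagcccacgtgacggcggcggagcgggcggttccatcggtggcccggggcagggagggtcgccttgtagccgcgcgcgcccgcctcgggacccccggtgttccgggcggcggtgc
Bach2 start inside the gene, chr4:32417185-32417484, plus strand: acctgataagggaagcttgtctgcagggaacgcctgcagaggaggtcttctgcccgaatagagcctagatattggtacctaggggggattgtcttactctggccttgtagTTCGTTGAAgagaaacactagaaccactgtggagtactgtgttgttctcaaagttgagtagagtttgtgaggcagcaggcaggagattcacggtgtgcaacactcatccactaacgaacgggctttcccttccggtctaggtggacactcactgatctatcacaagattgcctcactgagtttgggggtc
Satb1 upstream start, chr17:51833241-51833540, minus strand: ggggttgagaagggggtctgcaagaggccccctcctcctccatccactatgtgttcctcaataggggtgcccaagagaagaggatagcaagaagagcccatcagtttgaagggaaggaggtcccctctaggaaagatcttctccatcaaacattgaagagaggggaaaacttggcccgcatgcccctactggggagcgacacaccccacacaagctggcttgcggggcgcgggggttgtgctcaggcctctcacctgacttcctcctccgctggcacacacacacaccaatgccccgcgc
The internal Bcl6 window held 3 matches, TTCCTGGAA, TTCTGTGAA and TTCCGGGAA. The upstream Bcl6 window held TTCTCAGAA, and the Bach2 window held TTCGTTGAA.

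The direction of the ratios is likely rather than settled. The labels place the cytokine-cultured RNA in Cy5 on all arrays, whereas the design text and a deposited list describe exchanged dyes in replicates 2 and 3. Differences of 2 cytokines within a replicate, in which a shared dye effect cancels, were correlated between replicates over all probes. For IL-21 against IL-2, replicate 1 correlated with replicates 2 and 3 at 0.20 and 0.15. For IL-21 against IL-15 these correlations were 0.12 and 0.14. Replicates 2 and 3 correlated with each other at 0.11 and 0.17, which cannot bear on the orientation because turning both leaves it unchanged. For IL-15 against IL-2 the differences correlated between replicates at -0.037 to 0.041, which bears on neither orientation. On the basis of the IL-21 differences all arrays were read as cytokine over untreated, and a reversed channel order would turn every sign given here. Over all probes, arrays of the same replicate number correlated at 0.16 to 0.67 and arrays of the same cytokine at -0.28 to 0.23. Of 36 pairs of arrays 3 correlated below -0.3, all between replicates 1 and 3, the lowest at -0.35, so the direction against untreated cells is the less settled one. With the signs of replicates 2 and 3 turned, limma called 0 of the 7 genes and 0 of all genes in each of the 6 comparisons. Values under that reading, an alternative chosen in this form after seeing the data, stand beside the ranks of log2 change below. They also stand beside the counts of genes with all arrays above or all below 0 against untreated cells. If the dyes were exchanged as the design text describes, replicate 1 alone had its dye orientation, and replicate and dye cannot then be told apart.

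Satb1 gave the clearest difference among the 7 genes, and it set IL-21 apart from the other cytokines. With IL-21 its log2 ratios were 1.23, 1.65 and 1.37 in replicates 1, 2 and 3. With IL-2 they were -0.068, -0.16 and 0.0043, and with IL-15 they were -0.59, -0.11 and -0.16. The IL-21 arrays all lay above 1.2 while no IL-2 or IL-15 array exceeded 0.0043, so the IL-21 group did not overlap either of the others. Satb1 was higher with IL-21 than with IL-2 by 1.49 ± 0.19 (SE; limma adjusted p 0.0476, all 9 arrays in the fit), a 2.81-fold difference that was positive in 3 of 3 replicates. With the signs of replicates 2 and 3 turned it would be -0.62, and 1.42 with IL-21 against untreated cells would be -0.60. As read, it was the 1 gene of 17499 called higher in that comparison, or 0.00571% of all genes, with 13, or 0.0743%, called lower.

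**Figure D1:**
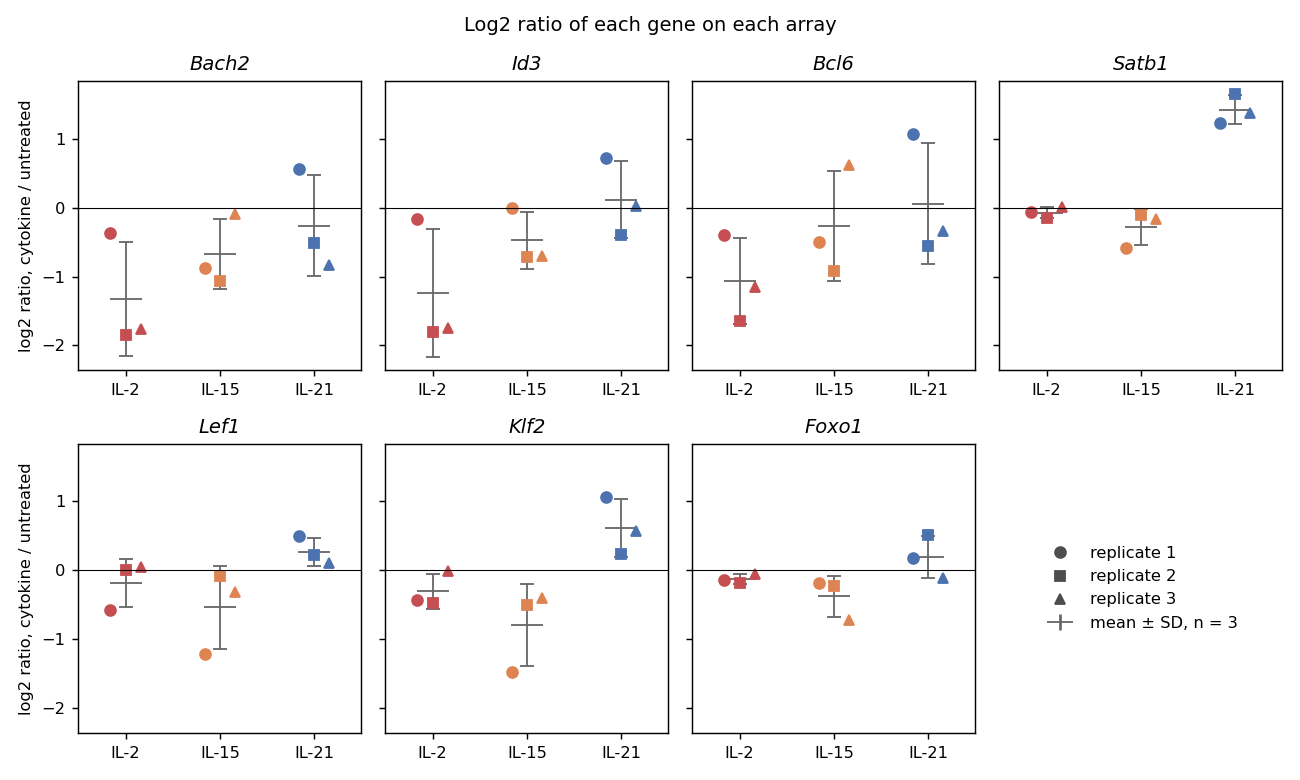
Log2 ratio of cytokine over untreated cells (y axis) for each of the 7 genes on each array, with marker shapes for the 3 replicates and a horizontal line with bars for the mean ± SD of n = 3. Satb1 lies between 1.23 and 1.65 with IL-21 and at or below 0.0043 with IL-2 and IL-15, and Bach2, Id3 and Bcl6 have their lowest mean with IL-2.

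The remaining Satb1 contrasts lay at the threshold. Against untreated cells the IL-21 mean of 1.42 ± 0.21 (SD, n = 3) was 2.67-fold. It had the smallest unadjusted p of all 17499 genes in that comparison, 3.11e-06, and an adjusted p of 0.0544 by limma, or 0.0254 with the replicate number as a block. IL-21 exceeded IL-15 by 1.70 ± 0.19 (SE; limma adjusted p 0.0508, and 0.0264 with the replicate block, which called 0.0229% of all genes higher there). IL-15 and IL-2 differed by -0.21, with a 95% interval of -0.65 to 0.23. Of the variation of Satb1 over the 9 arrays, 95.6% lay between cytokines and 2.19% between replicates, whereas the medians over all genes were 17.4% and 46.4%.

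The call of Satb1 between IL-21 and IL-2 held with the replicate block (limma adjusted p 0.0225). It was lost in 11 of the 12 fits with an array or a replicate left out. Without any 1 of the 3 IL-2 or 3 IL-21 arrays, or without IL-15 replicate 2 or 3, limma's adjusted p lay between 0.093 and 0.194, and without IL-15 replicate 1 it was 0.0354. Leaving out replicate 1, 2 or 3 whole gave 0.168, 0.856 and 0.77, while the difference itself stayed between 1.34 and 1.59. Quantile normalization raised the difference to 2.15 but its adjusted p to 0.537.

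Both Satb1 probes showed the pattern. The first read 1.13, 1.85 and 1.24 with IL-21, and the second 1.34, 1.45 and 1.51. Fitted alone among all probes, they differed between IL-21 and IL-2 by 1.53 ± 0.27 (SE; limma adjusted p 0.098) and 1.45 ± 0.21 (SE; limma adjusted p 0.0558).

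**Figure D2:**
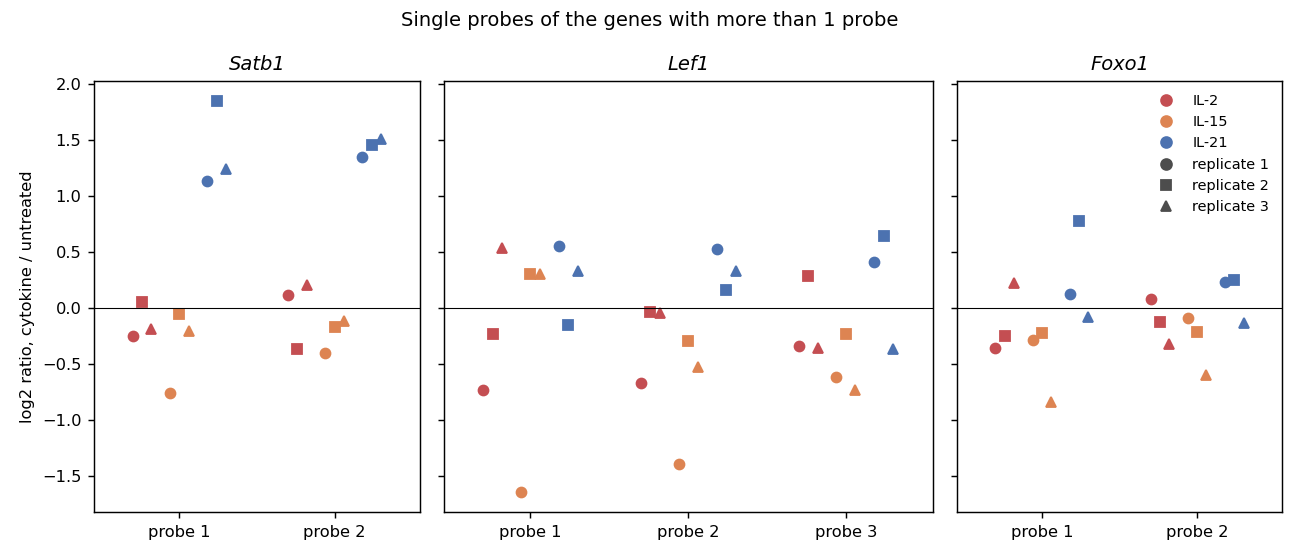
Log2 ratio of cytokine over untreated cells (y axis) for each probe (x axis) of Satb1, Lef1 and Foxo1, with colours for the cytokine and marker shapes for the replicate. On both Satb1 probes every IL-21 array lies above 1.1 and every other array below 0.21. On the second Lef1 probe the IL-21 arrays lie above 0 and all others below it. The other Lef1 probes and both Foxo1 probes have IL-21 arrays on both sides of 0. The probes of Lef1 differ in their IL-2 and IL-15 values.

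The repressor genes Bach2 and Bcl6 and the E protein inhibitor gene Id3 had their most negative values with IL-2. Bach2 read -0.36, -1.85 and -1.76 with IL-2, a mean of -1.32 ± 0.83 (SD, n = 3) that corresponds to 2.5-fold less RNA than in untreated cells. With IL-15 it read -0.87, -1.06 and -0.098, and with IL-21 it read 0.56, -0.51 and -0.84. All 6 IL-2 and IL-15 arrays were below 0, but the IL-2 and IL-21 groups overlapped because IL-2 replicate 1 lay above the lower IL-21 arrays. Bach2 ranked 22nd lowest of 17499 genes for IL-2 and did not pass (log2 change -1.32 ± 0.35 SE; limma adjusted p 0.185). With the signs of replicates 2 and 3 turned it would be 1.08, the 11th highest. IL-21 differed from IL-2 by 1.06, positive in 3 of 3 replicates. The 95% interval was -0.063 to 2.18, or 0.064 to 2.06 with the replicate block. The difference passed in neither fit (limma adjusted p 0.873, and 0.373 with the block). Without IL-21 replicate 1 the difference was 0.65, the lowest of the values with an array or replicate left out, and the highest was 1.54.

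Id3 read -0.17, -1.80 and -1.75 with IL-2, -0.0012, -0.72 and -0.70 with IL-15, and 0.71, -0.39 and 0.031 with IL-21. In every replicate the order was IL-2 lowest, IL-15 between and IL-21 highest, although replicate 1 lay above the other replicates for each cytokine, and the groups of IL-2 and IL-21 overlapped across replicates. Id3 ranked 27th lowest of 17499 genes for IL-2, at -1.24 ± 0.33 (SE; limma adjusted p 0.197). Under turned signs it would be 1.13, the 6th highest. With the replicate block it passed at a limma adjusted p of 0.0174, and with a dye term, at -1.06, at 0.0199, but not with a random block (0.122). The blocked p-value omits the spread that a replicate's arrays share. The dye term takes out the gap between replicate 1 and the others. Neither p-value therefore measures how well the replicates agreed. Without IL-2 replicate 1 Id3 passed at -1.78 (limma adjusted p 0.0468, or 0.0369 without replicate 1 whole). Without IL-2 replicate 2 or 3 it was -0.96 and -0.99 (limma adjusted p 0.799 and 0.749, or 1 and 0.845 without those replicates whole). IL-21 exceeded IL-2 by 1.36 ± 0.47 (SE; limma adjusted p 0.588, 0.0665 with the replicate block), in 3 of 3 replicates by 0.88, 1.41 and 1.78. Of the variation of Id3, 50.9% lay between cytokines and 42.7% between replicates.

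Bcl6 read -0.40, -1.64 and -1.15 with IL-2, -0.50, -0.92 and 0.62 with IL-15, and 1.07, -0.55 and -0.34 with IL-21. The IL-2 arrays were all below 0, and the IL-15 and IL-21 arrays fell on both sides of it. Its IL-2 mean ranked 41st lowest of 17499 genes, at -1.06 ± 0.38 (SE; limma adjusted p 0.406). Its mean under turned signs would be 0.80, the 50th highest. IL-21 differed from IL-2 by 1.12, and by 1.47, 1.09 and 0.81 in the 3 replicates. The 95% interval was -0.11 to 2.35, or 0.10 to 2.14 with the replicate block. This difference passed in neither fit (limma adjusted p 0.898, and 0.357 with the block). Without IL-21 replicate 1 the difference was 0.62, the lowest of the values with an array or replicate left out, and the highest was 1.46. The means of Bach2, Id3 and Bcl6 thus shared one order, IL-2 lowest and IL-21 highest. For Bach2 and Bcl6 only replicate 2 kept it. Their IL-15 value lay below that of IL-2 in replicate 1 and above that of IL-21 in replicate 3. Without the replicate block the 95% intervals of both neighbouring pairs, IL-15 against IL-2 and IL-21 against IL-15, include 0 for all 3 genes. With the block they include 0 for Bach2 and Bcl6, while for Id3 they are 0.25 to 1.29 for IL-15 against IL-2 and 0.071 to 1.11 for IL-21 against IL-15. Neither Id3 difference passed over all genes (limma adjusted p 0.898 and 0.371 with the block).

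Klf2, Lef1 and Foxo1, like Satb1, had means in the opposite order of IL-2 and IL-15, lowest under IL-15. IL-15 differed from IL-2 by -0.49 for Klf2 (limma interval -1.24 to 0.26). The difference was -0.36 for Lef1 (-1.07 to 0.35) and -0.25 for Foxo1 (-0.75 to 0.25). For these 3 genes it was below 0 in every replicate. Their intervals include 0, with and without the replicate block, as do those of Satb1. This order is therefore not settled. Klf2 read -1.48, -0.50 and -0.40 with IL-15, -0.43, -0.47 and -0.0099 with IL-2, and 1.06, 0.23 and 0.57 with IL-21. All 6 IL-2 and IL-15 arrays were below 0 and all 3 IL-21 arrays above it. Klf2 differed between IL-21 and IL-15 by 1.41 ± 0.33 (SE; limma adjusted p 0.289), the 53rd highest of 17499 genes, and between IL-21 and IL-2 by 0.92 ± 0.33 (SE; limma adjusted p 0.625). With the signs of replicates 2 and 3 turned these differences would be 0.28, the 1937th highest, and 0.070. Replicate 1 gave the widest gap between IL-21 and IL-15, 2.54, against 0.73 and 0.97 in replicates 2 and 3, and without replicate 1 the difference was 0.85. Against untreated cells the means were -0.79 ± 0.60 with IL-15 and 0.62 ± 0.42 with IL-21 (SD, n = 3; limma adjusted p 0.355 and 0.789), and without replicate 1 they were -0.45 and 0.40.

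Lef1 read 0.49, 0.22 and 0.10 with IL-21, -1.22, -0.078 and -0.32 with IL-15, and -0.58, 0.0026 and 0.042 with IL-2. On the mean of its 3 probes the IL-21 arrays lay above all others, but in replicates 2 and 3 by little. The first probe read -0.15 with IL-21 in replicate 2 and 0.30 with IL-15 in replicates 2 and 3. The third read -0.36 with IL-21 in replicate 3 and -0.24 with IL-15 in replicate 2. On the second probe alone the IL-21 arrays lay above all others. IL-21 differed from IL-15 by 0.81 ± 0.31 (SE; limma adjusted p 0.78), which was 1.71 in replicate 1 and 0.30 and 0.42 in replicates 2 and 3, and 0.36 without replicate 1. With the signs of replicates 2 and 3 turned it would be 0.33. The 3 probes of Lef1 gave 0.59, 1.07 and 0.76 for that difference.

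Foxo1 had the narrowest range of the 7 genes over the 9 arrays, from -0.72 to 0.51. It read -0.14, -0.19 and -0.052 with IL-2, -0.19, -0.22 and -0.72 with IL-15, and 0.18, 0.51 and -0.11 with IL-21. The IL-21 arrays did not overlap those of IL-15, from which they differed by 0.57 ± 0.22 (SE; limma adjusted p 0.775), and overlapped those of IL-2. Its probes gave 0.72 and 0.42 for that difference. On the second probe the 2 groups overlapped, with -0.14 for IL-21 in replicate 3 and -0.091 for IL-15 in replicate 1.

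**Figure D3:**
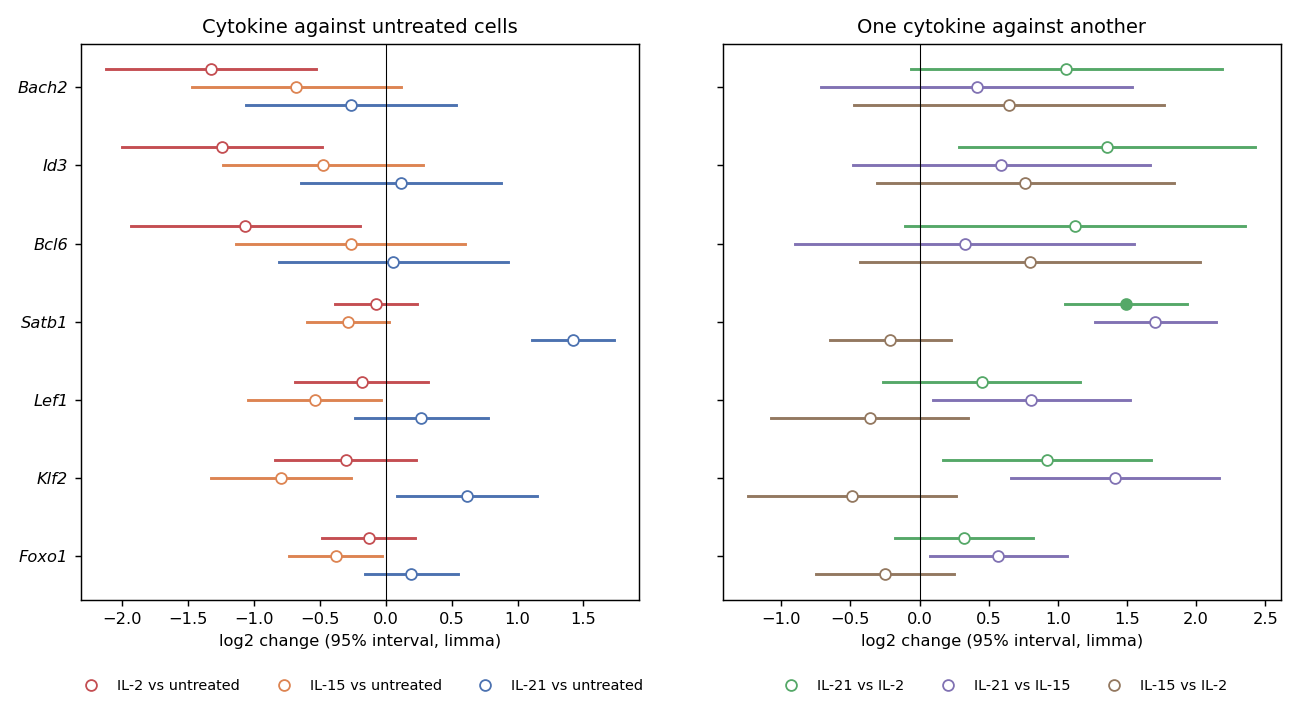
Log2 change (x axis, limma, with 95% intervals) of each of the 7 genes for each cytokine against untreated cells (left) and for each pair of cytokines (right), where a filled point passed an adjusted p of 0.05. The filled point is Satb1 in IL-21 against IL-2 at 1.49, and in both panels the intervals of Bach2, Id3 and Bcl6 are wider than those of Satb1 and Foxo1.

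Counted together, 0 of the 7 genes passed for IL-2 at an adjusted p of 0.05, where limma called 0.8% of all genes, and at an unadjusted p under 0.05 Bach2, Id3 and Bcl6 were lower (3 of 7, against 2.05% of all genes lower). For IL-15, 0 of 7 passed against 0.126% of all genes, and Klf2, Lef1 and Foxo1 were lower at an unadjusted p under 0.05 (3 of 7, against 2.15%). For IL-21, 0 of 7 passed and 0% of all genes did, and Satb1 and Klf2 were higher at an unadjusted p under 0.05 (2 of 7, against 2.62%). With the replicate block Id3 passed for IL-2 and Satb1 for IL-21, where 0.229% of genes were lower and 0.0629% higher. These blocked p-values omit the spread that a replicate's arrays share.

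All 7 means were below 0 for IL-2 and for IL-15, and 6 of 7 were above 0 for IL-21, the exception being Bach2. All 3 arrays were below 0 for 5 of 7 genes with IL-2, against 9.06% of all genes, and for 6 of 7 with IL-15, against 12.6%. All 3 were above 0 for 3 of 7 with IL-21, against 11.5%. With the signs of replicates 2 and 3 turned, all 3 arrays would be below 0 for 1 of 7 genes with IL-2 (Lef1), against 19.2% of all genes, and for 0 of 7 with IL-15, against 15.7%. They would be above 0 for 2 of 7 with IL-21 (Bach2 and Bcl6), against 13.9%. The median log2 change was -0.30 for IL-2, -0.47 for IL-15 and 0.19 for IL-21, where the medians of all genes were 0.050, 0.0022 and 0.0033. These comparisons may share untreated RNA within a replicate, so their values are set side by side only.

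Between cytokines, all 7 means were higher with IL-21 than with IL-2 and with IL-15, and with the signs of replicates 2 and 3 turned 2 and 4 of them would be. The median difference was 1.06 from IL-2 and 0.59 from IL-15, against -0.052 and -0.0040 over all genes. For IL-21 against IL-2 the groups did not overlap for Satb1, Klf2 and Lef1 (3 of 7 higher, against 3.18% of all genes), and Satb1, Id3 and Klf2 were higher at an unadjusted p under 0.05 (3 of 7, against 1.51%). For IL-21 against IL-15 the groups did not overlap for Satb1, Klf2, Lef1 and Foxo1 (4 of 7, against 4.43%). Both counts are of means over a gene's probes, and groups of Lef1 and of Foxo1 overlapped on single probes. There limma called 0 of 7 and 0.0171% of all genes, with the same 4 genes higher at an unadjusted p under 0.05, against 2.07%. Every IL-21 array was above 0 and every array of the other cytokine below it for 1 of 7 genes against IL-2 (Klf2), against 0.914% of all genes, and for 3 of 7 against IL-15 (Satb1, Klf2 and Lef1), against 1.31%. For IL-15 against IL-2, 0 of 7 and 0% of all genes passed, 0 of 7 had an unadjusted p under 0.05, against 1.44%, and 3 means were higher and 4 lower. The groups overlapped for 6 of 7 genes and met for Foxo1, whose highest IL-15 and lowest IL-2 values were both -0.19.

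**Figure D4:**
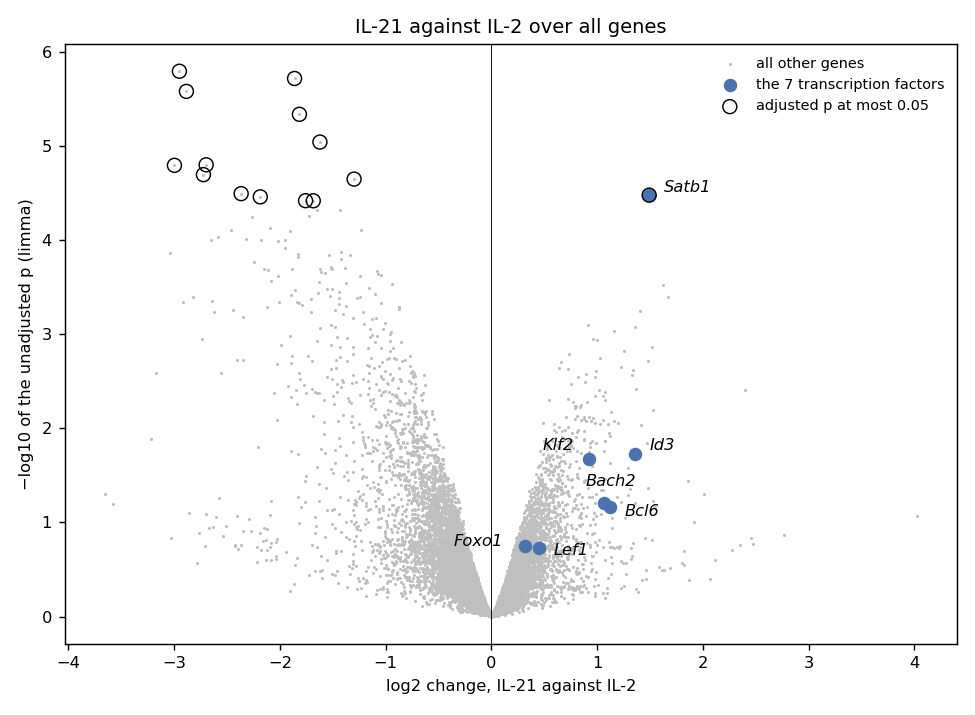
Log2 change of IL-21 against IL-2 (x axis) and -log10 of the unadjusted limma p (y axis) for 17499 genes, with the 7 factors in blue and a ring around each gene at an adjusted p of at most 0.05. All 7 factors lie right of 0, and Satb1, at 1.49, is the one ringed gene on that side, against 13 on the other.

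Likeness between genes was described by Pearson's r over the 9 arrays after each replicate's mean was subtracted. The arrays share replicates and possibly untreated RNA, so r carries no test here. Bach2 and Bcl6 followed each other at 0.97, and Lef1 and Klf2 also at 0.97, while Bach2 and Foxo1 had 0.12 and Bcl6 and Foxo1 0.051. Satb1 had 0.86 with Klf2 and 0.80 with Foxo1. Among all 17499 genes, the 3 most like Satb1 were Igkv1-131 at 1.00, Bin3 and Arhgap39 at 0.99. Those most like Lef1 were Rgs10, a regulator of G protein signalling, at 1.00, and Dhx40 and Pkd1 at 0.99. Those most like Klf2 were Tgfbr2, a receptor chain for TGF-beta, the related factor gene Klf13, and Arhgef18, each at 0.99. For Foxo1 they were Defb3 at 0.99, Psen2 and Commd8 at 0.98, and for Id3 they were B3galnt2 and Stab1 at 0.99 and Uxt at 0.98. For Bach2 they were Mbnl2 at 0.98 and Tmub1 and Jak2 at 0.97, the last a kinase of cytokine receptors, and for Bcl6 they were Tmub1 and Inpp5k at 0.98 and Bach2 at 0.97.

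Other regulators of the naive and memory state showed no gene past the threshold. Of 12 listed transcription factors 11 were measured, and 0 passed by limma in any of the 6 comparisons. Their median was -0.040 for IL-2, -0.28 for IL-15 and 0.010 for IL-21. The largest differences between IL-21 and IL-2 were -0.77 ± 0.21 for Eomes, a T-box factor of memory and effector cells (SE; limma adjusted p 0.344), 0.51 ± 0.46 for the quiescence factor Foxp1 (SE; limma adjusted p 0.999) and 0.51 ± 0.32 for Klf3 (SE; limma adjusted p 0.999). Of the 11 factors, 6 had higher and 5 lower means with IL-21 than with IL-2, and the median difference was 0.26.

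Surface and survival genes of naive and memory cells include known targets of Klf2 and Foxo1. Of 10 listed 9 were measured, and 0 passed by limma in any comparison, while Cd27, a costimulatory receptor, passed for IL-2 with the replicate block at 0.0169 (log2 change -0.97). That p-value omits the spread that a replicate's arrays share, and Cd27 read -0.13, -0.91 and -1.87 with IL-2. The median was 0.061 with IL-2, 0.024 with IL-15 and 0.18 with IL-21. The egress receptor gene S1pr1, a target of Klf2, had ratios of -1.56, -0.90 and -0.22 with IL-15 and 0.82, 0.12 and 0.52 with IL-21, a difference of 1.38 ± 0.38 (SE; limma adjusted p 0.42). With IL-2 its ratios were -0.56, -0.33 and 0.38. IL-21 differed from IL-2 by 0.66 ± 0.38 for this gene (SE; limma adjusted p 0.997). Ccr7, the lymph node homing receptor, and Il7r, the IL-7 receptor chain driven by Foxo1, differed between IL-21 and IL-15 by 0.97 ± 0.19 and 1.05 ± 0.33 (SE; limma adjusted p 0.213 and 0.573), both in 3 of 3 replicates. Dapl1 went the other way, at -0.86 ± 0.39 (SE; limma adjusted p 0.887), also in 3 of 3 replicates, and these 3 genes were named after their values were seen. Of the 9 genes, 6 had higher means with IL-21 than with IL-15 and 3 lower, Bcl2 and Nell2 being the others. Igfbp4, a naive T cell marker, had 1.79 ± 0.24 with IL-21 (SE; limma adjusted p 0.118). Its ratios were above 0 on every array. The means were 0.97 with IL-15 and 0.63 with IL-2 (limma adjusted p 0.246 and 0.451).

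Of 7 listed effector transcription factors, all measured, 2 were called higher with IL-2, where 0.76% of all genes were, and 0 passed in the other 5 comparisons. Id2, the family member of Id3 that favours effector cells, was higher with IL-2 by 1.14 ± 0.18 (SE; limma adjusted p 0.0293), and its ratios were 1.01, 1.28 and 1.13. Batf, an AP-1 factor of effector cells, was higher with IL-2 by 1.39 ± 0.24 (SE; limma adjusted p 0.0437), and its ratios were 1.07, 0.93 and 2.17. With the signs of replicates 2 and 3 turned limma called neither gene, and the ratios of both in these replicates would be negative. With IL-21 Id2 and Batf had 1.11 and 1.27 (limma adjusted p 0.177 and 0.289), so they differed between IL-21 and IL-2 by -0.026 and -0.11, while Id3 differed by 1.36. Bhlhe40 had -1.17 between IL-21 and IL-2 (limma adjusted p 0.192, 0.0244 with the replicate block) and -0.87 with IL-21 (limma adjusted p 0.321, 0.0387 with the replicate block). Irf4, which T cell receptor stimulation induces, had 0.11 between IL-21 and IL-2. Prdm1, the effector gene that Bcl6 represses, had 0.40 with IL-2, 0.31 with IL-15 and 0.39 with IL-21 (limma adjusted p 0.845, 0.951 and 0.867), and was named after its values were seen. The list's median was 0.30 with IL-2, 0.31 with IL-15 and -0.17 with IL-21.

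Of 20 family members and partners of the 7 genes 17 were measured, and Id2 with IL-2 was the 1 called. The list's median was -0.062 with IL-2, -0.11 with IL-15 and -0.16 with IL-21. Klf6 and Klf13, relatives of Klf2, had -0.87 ± 0.21 and 0.52 ± 0.23 between IL-21 and IL-2 (SE; limma adjusted p 0.271 and 0.823). The E protein gene Tcf3, whose product Id3 blocks, had -0.51 ± 0.20 (SE; limma adjusted p 0.711).

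**Figure D5:**
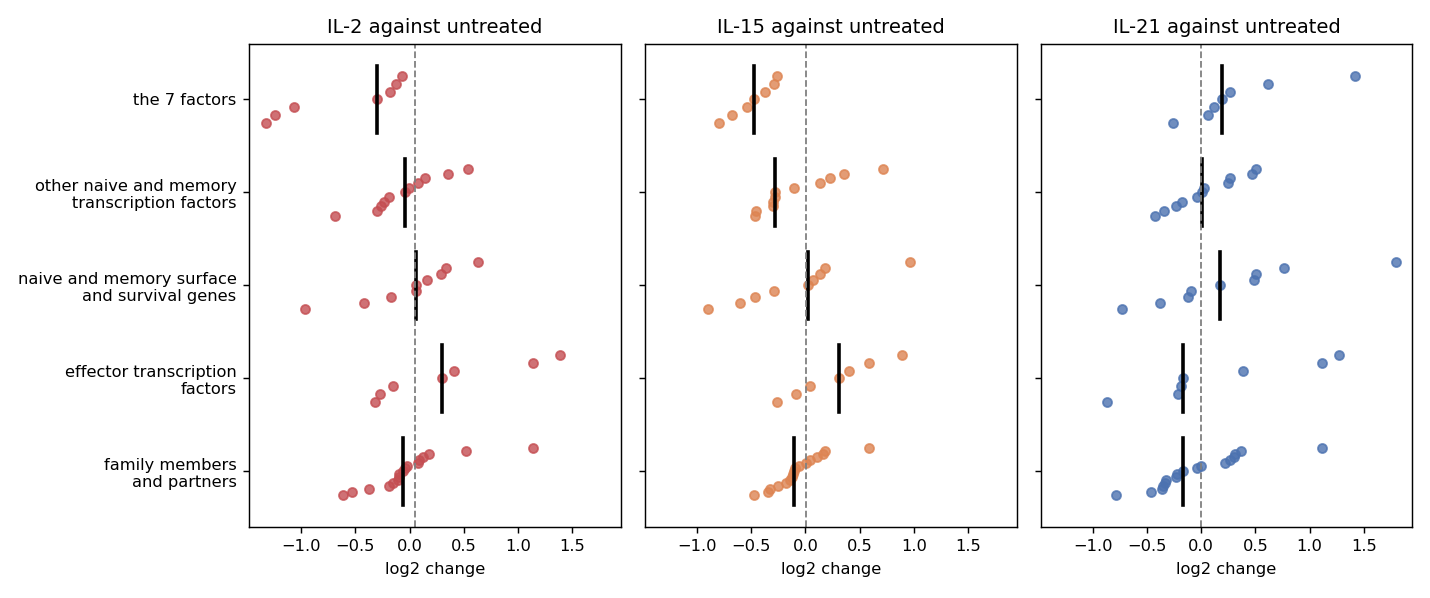
Log2 change against untreated cells (x axis) of each measured gene of 5 lists (rows), with a panel per cytokine, a black bar at each list's median and a dashed line at the median of all genes. The 7 factors have medians of -0.30, -0.47 and 0.19, and the highest values of the effector list, Batf and Id2, lie above 1.1 with both IL-2 and IL-21.

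Bach2 and Bcl6 are also active in B cells, and markers of cell types that the cultures could hold were therefore listed. Only ratios were at hand, so neither the presence of a cell type nor the labelled identity as CD8 T cells could be read from a level. Of 5 measured CD8 T cell markers 0 passed, with log2 changes between -0.40 and 0.25 over the 3 cytokines. Of 7 B cell markers, 4 CD4 T cell markers and 6 myeloid and dendritic cell markers 0 passed, with ranges of -0.36 to 0.19, -0.22 to 0.20 and -0.31 to 0.10. The B cell median was -0.033 with IL-2, -0.13 with IL-15 and 0.097 with IL-21. The part of such cells in the values of the 7 genes was not tested.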

How the data were processed

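The deposited values are log ratios per probe and array, 36547 probes on 9 two-colour arrays, and were taken as log2. The sources used here do not give the log base or the scanner, background correction and normalization the authors used. A natural log is possible, in which case all log2 changes would be too small by one factor. Per the labels' protocols, an amino allyl amplification kit was used on total RNA. Spot intensities were not used here, so no filter on dim probes was possible, and precision is limited by the small number of arrays.

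Probes with exactly 1 symbol (26926, less 39 viral control probes) were named through the platform annotation, updated by Entrez ID, and averaged per gene. The result was 17499 genes, and 5884 of these had several probes. Several symbols were listed for 203 probes. The fit used limma 3.58.1 in R 4.3.3 on all genes, with 1 coefficient per cytokine over all 9 arrays, no replicate block and no dye term, 6 comparisons, two-sided tests and Benjamini-Hochberg adjustment at 0.05. The fit was tested on simulated data with independent noise on each array. That test held no effect shared by a replicate's arrays, so it does not cover the pairing of the real arrays. Same-numbered arrays deviated together from their cytokine means (all 9 correlations between 0.15 and 0.65), so the numbers were taken as pairing the arrays, and blocked values stand beside a result where they change its call. Against untreated cells, a blocked p-value omits the part of the spread common to a replicate's arrays.

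The 7 genes, the gene lists and the tests were chosen with earlier results of these data known. All 7 genes are named; of each other list, the text names genes that passed and otherwise the 3 with the largest difference between IL-21 and IL-2, and for likeness the 3 genes with the highest Pearson's r. Alternatives were the replicate block, a random block, a dye term, quantile normalization, median centring, the median of probes, single probes, turned signs in replicates 2 and 3 (planned for counts of calls, with values, ranks and sides of 0 added after seeing the data), and left-out arrays and replicates. Promoter windows are RefSeq's on GRCm38.p6, in which all 7 genes matched.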

Additional observations from a re-analysis of the deposited data

Results flagged for a closer look

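Satb1 differed between IL-21 and IL-2 by 1.49 in the test of the difference itself (limma adjusted p 0.0476), with IL-21 arrays near 1.4 and IL-2 arrays near 0. A further 4 differences had every array of one cytokine above 0 and every array of the other below. Of all genes, 0.914% met this rule with IL-21 above IL-2 and 1.31% with IL-21 above IL-15, and none of these passed limma's test of the difference. They were Satb1 between IL-21 and IL-15 at 1.70 (adjusted p 0.0508), Klf2 between IL-21 and IL-15 at 1.41 (adjusted p 0.289), Klf2 between IL-21 and IL-2 at 0.92 (adjusted p 0.625), and Lef1 between IL-21 and IL-15 at 0.81 (adjusted p 0.78).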

How the results depend on the processing

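Of 42 values (7 genes in 6 comparisons), 0 changed sign under the 6 alternatives that kept all arrays and their signs, and 7 did so when an array or replicate was left out, none of them a call. Their ranges were -0.29 to 0.022 for Lef1 with IL-2, -0.71 to 0.062 for Bcl6 with IL-15, -0.68 to 0.026 for Bach2 with IL-21, -0.18 to 0.37 for Id3 with IL-21, -0.45 to 0.36 for Bcl6 with IL-21, -0.098 to 0.99 for Bach2 between IL-21 and IL-15, and -0.29 to 0.97 for Bcl6 between IL-21 and IL-15. The number of the 7 genes called for IL-2 went from 0 to 1 (Id3) with the replicate block and with the dye term, and from 0 to 1 over the left-out arrays. For IL-21 it was 1 (Satb1) with the replicate block, the dye term and median centring. For IL-21 against IL-15 it was 1 (Satb1) with the replicate block, the random block (correlation 0.432), the dye term, median centring and the median of probes. For IL-21 against IL-2 it was 0 with quantile normalization, with single probes and with the signs of replicates 2 and 3 turned, and 0 to 1 over the left-out arrays. Over all genes limma called 140 for IL-2, against 343 with the replicate block, 284 with the dye term and 19 with quantile normalization. For IL-15 it called 22, against 122 with the replicate block, 170 with the dye term and 12 single probes, and for IL-21 0, against 23, 19 and, with median centring, 1. For IL-21 against IL-2 it called 14, against 92 with the replicate block, 201 with the random block, 90 with the dye term, 1 with quantile normalization and 4 single probes. For IL-21 against IL-15 it called 3, against 32, 127, 39 and 1 under these settings, 5 with median centring and 0 single probes. With turned signs 0 genes of all were called in each comparison. With the signs of replicates 2 and 3 turned, 24 of the 42 values changed sign. They were, for IL-2, 1.08 for Bach2, 1.13 for Id3, 0.80 for Bcl6, 0.028 for Satb1, 0.019 for Klf2 and 0.033 for Foxo1. For IL-15, they were 0.094 for Bach2, 0.47 for Id3 and 0.25 for Foxo1. For IL-21, they were 0.64 for Bach2, -0.60 for Satb1 and -0.074 for Foxo1. For IL-21 against IL-2, they were -0.44 for Bach2, -0.77 for Id3, -0.14 for Bcl6, -0.62 for Satb1 and -0.11 for Foxo1. For IL-21 against IL-15, they were -0.12 for Id3, -0.49 for Satb1 and -0.33 for Foxo1. For IL-15 against IL-2, they were -0.99 for Bach2, -0.65 for Id3, -0.86 for Bcl6 and 0.22 for Foxo1. The replicate block changed no other call of the 7 genes. Fewer arrays enter each left-out fit; for the other changes the cause was not tested.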
